A study of Mus musculus with 8 samples.

Results

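The genes described are the amino acid transporter families Slc1a, Slc3a, Slc6a, Slc7a, Slc36a, Slc38a and Slc43a, chosen by name from the array's annotation. Every gene whose symbol begins with one of these 7 family names was taken, apart from 1 left out by the rule, provided that a probe set named it alone. This gave 63 genes of the 19936 tested, namely 7 of Slc1a, 2 of Slc3a, 21 of Slc6a, 15 of Slc7a, 4 of Slc36a, 11 of Slc38a and 3 of Slc43a. Of these, 61 are transporter genes and 2 (Slc6a19os and Slc7a6os) are opposite-strand genes that carry a transporter's name. The rule went by gene name and used readings only to pick each gene's probe set of highest mean. It was, however, set with earlier results of these data known, so the choice was not blind to them. No filter on low values was applied, so all 63 were tested.

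RNA from whole kidneys of 8 female mice of mixed C57BL/6 and SV127 background was hybridised to 8 Affymetrix arrays. By the labels 4 of the mice had floxed Vhl alleles together with Pax8-rtTA and LC-1, and theirs are the arrays labelled mutant. The other 4 were littermates whose genotype the labels give only as control, here the arrays labelled control. Mice of both groups were given doxycycline (0.2 mg/ml, in water with 5% sucrose) for 2 weeks starting at 3 weeks of age, followed by 1 week without it, and kidneys were taken at 6 weeks. Pax8-rtTA together with LC-1 forms a doxycycline-inducible Cre system directed at the tubule epithelium, so other cells of the kidney are not its target. The product of Vhl is the part of a ubiquitin ligase that recognises hypoxia-inducible factor (HIF) when oxygen is present and leads to its breakdown.

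The Vhl probe set itself read higher on the arrays labelled mutant, at 8.34 ± 0.0909 against 8.05 ± 0.118 (deposited log2 reading, mean and SD, n = 4 mice each). That log2 difference of 0.29 had an adjusted p of 0.0387 by limma, with Benjamini-Hochberg adjustment over all genes, and of 0.0558 with the replicate number as a block. The Vhl call was lost in 9 of 17 alternative fits, with limma adjusted p values up to 0.123. Of 10 HIF target genes, 9 fell on the arrays labelled mutant and none rose, with a median log2 difference of -1.22. Whether the Vhl probe set lies in the floxed part was not examined here. Loss of Vhl is known to raise HIF targets, so these readings go against the labels. Every direction, rise, fall and rank below is by label only. If the labels were exchanged each would turn the other way, and none is given for loss of Vhl.

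Amino acids filtered by the glomerulus are taken back almost completely by the proximal tubule. Apical carriers, many of them coupled to sodium or protons, bring them into the cell, and basolateral carriers, often exchangers, pass them on to the blood. Some carriers work only with a partner protein. Many Slc7a light chains are brought to the membrane by the heavy chains Slc3a1 or Slc3a2. In the kidney Slc6a19 needs collectrin, the product of Cltrn. Inherited loss of such carriers causes aminoacidurias, among them cystinuria (SLC3A1, SLC7A9), Hartnup disorder (SLC6A19) and lysinuric protein intolerance (SLC7A7).

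Among the members, 7 rose on the arrays labelled mutant (Slc6a19, Slc36a1, Slc6a9, Slc7a8, Slc6a20a, Slc1a5 and Slc7a9) and 2 fell (Slc43a3 and Slc38a10), at an adjusted p under 0.05 in limma. The 9 called members were 14.3% of the 63, where 7.23% of all genes tested were called. The 7 that rose were 11.1% of the members, where 2.59% of all genes tested rose. The other 2 were 3.17%, where 4.64% of all genes fell. The median log2 difference was 0.07 over the 63 members and 0.03 over all genes, and 47 of the members (74.6%) and 58.1% of all genes had a positive difference. In whole tissue, fewer cells of a type and less RNA per cell cannot be told apart.

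The arrays of the 2 groups did not overlap for 16 members (25.4%), 13 of them higher and 3 lower on the arrays labelled mutant, where 14.8% of all genes did not overlap. The calls among the members, in the fit without the replicate block, lay with those of higher readings. Of the 23 members whose mean was in the upper quartile of genes (log2 9.37 or more, a split made after the values were seen), 7 rose (30.4%, against 5.00% of all genes in that quartile) and 2 fell (8.7%, against 7.28%). None of the other 40 members was called by limma in either direction in that fit. Under alternative fits Slc6a17 passed with the replicate block (adjusted p 0.00298 by limma) and without control array 3 (0.0431). Without mutant arrays 3 and 4, Slc38a8 (0.0338), Slc6a21 (0.0319) and Slc6a4 (0.043) passed, and Slc6a4 also without mutant array 3 (0.0277). A further 12 members of the 63 had an unadjusted p under 0.05 without passing the adjusted threshold. Of the members, 24 read below the overall median of 7.57, where small differences are compressed.

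**Figure D1:**
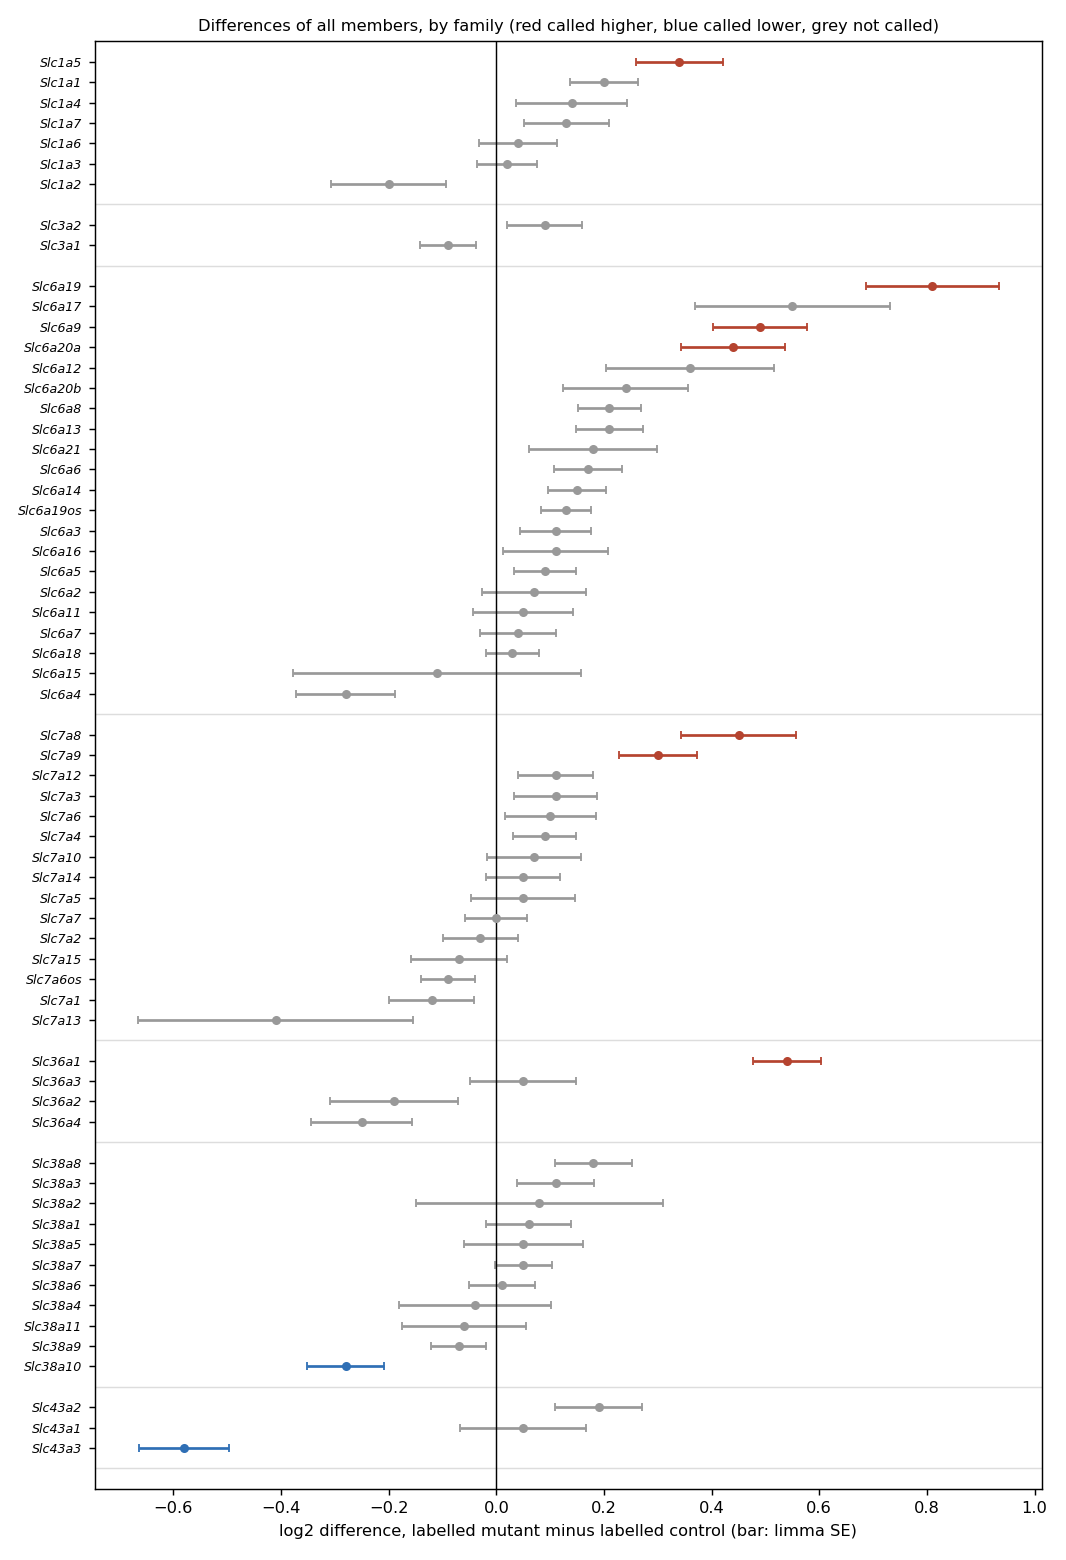
Log2 difference, labelled mutant minus labelled control, for each of the 63 members (x axis), grouped by family (y axis), with points as the difference of the means and bars as limma's standard error. Red marks the 7 members that rose, blue the 2 that fell and grey the 54 that were not called. The Slc6a family lies mostly to the right of 0, with 19 of its 21 members positive.

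**Figure D2:**
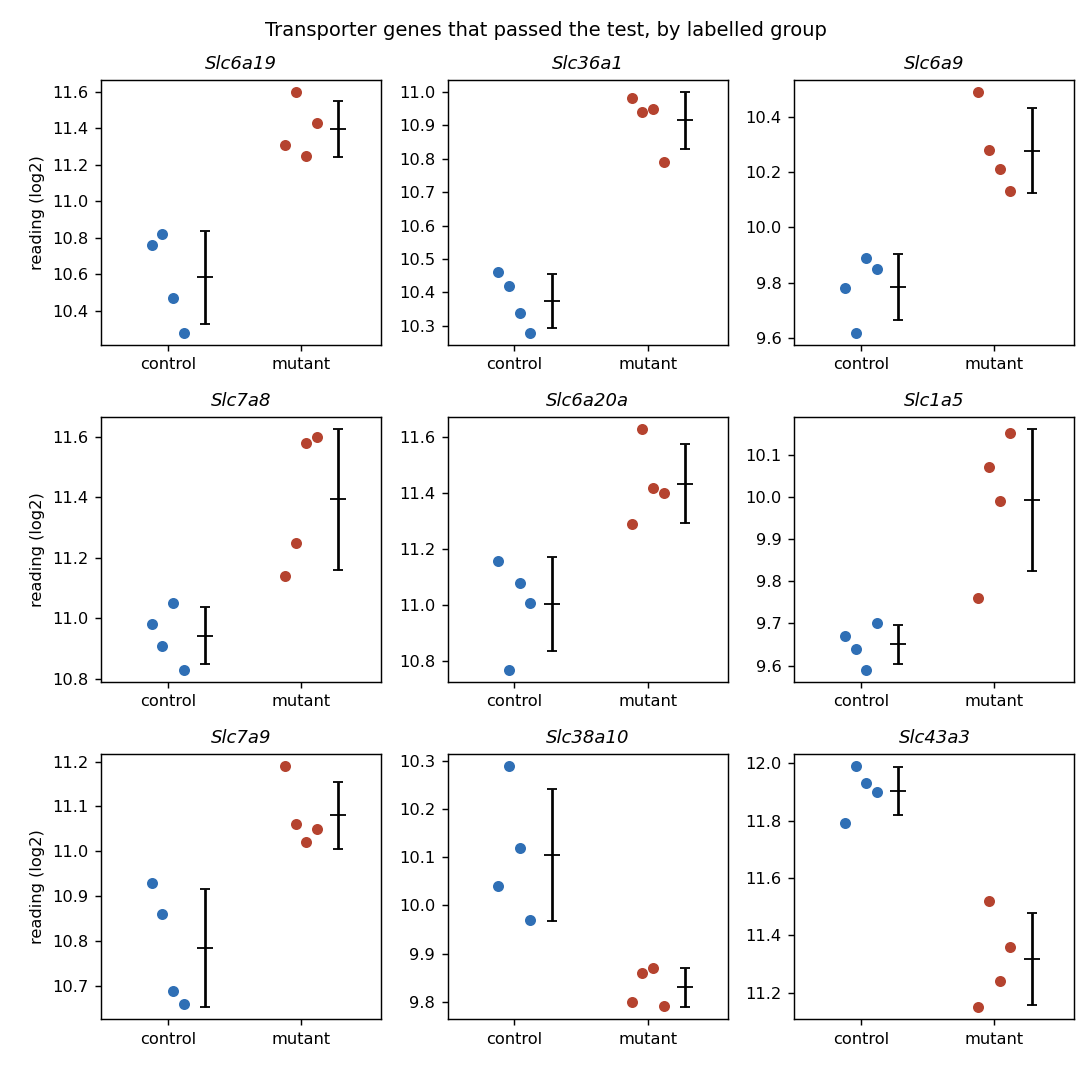
Deposited log2 reading (y axis) of the 9 called members on each array, labelled control in blue and labelled mutant in red (4 arrays each), with the mean and SD beside the points. Axes differ between panels and do not start at 0. In every panel the 4 arrays of one group lie apart from the 4 of the other.

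The promoter windows of 3 members are shown because these genes rose and encode carriers of neutral amino acids or proline. Slc6a19 and Slc36a1 were called in every alternative fit, and Slc6a20a, called in 12 of 17, is the proline carrier that rose beside them. The same reason would cover Slc6a9, also called in every alternative fit, and Slc7a8, whose windows are not shown. Each is the run of 250 bases before the annotated start in RefSeq's GRCm38.p6, 5′ to 3′ on the gene's strand, with capitals marking motif matches. The windows lie at chr13:73692637-73692886 (minus strand) for Slc6a19, chr11:55204090-55204339 (plus strand) for Slc36a1 and chr9:123678833-123679082 (minus strand) for Slc6a20a.
Slc6a19: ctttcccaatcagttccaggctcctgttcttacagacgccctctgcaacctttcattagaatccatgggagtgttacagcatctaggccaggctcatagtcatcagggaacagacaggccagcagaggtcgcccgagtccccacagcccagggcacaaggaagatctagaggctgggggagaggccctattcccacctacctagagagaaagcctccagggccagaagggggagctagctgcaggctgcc
Slc36a1: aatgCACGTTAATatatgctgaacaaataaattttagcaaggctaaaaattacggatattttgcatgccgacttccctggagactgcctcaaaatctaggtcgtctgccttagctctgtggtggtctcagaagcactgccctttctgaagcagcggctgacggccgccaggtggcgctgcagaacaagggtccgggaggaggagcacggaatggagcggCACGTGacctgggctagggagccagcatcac
Slc6a20a: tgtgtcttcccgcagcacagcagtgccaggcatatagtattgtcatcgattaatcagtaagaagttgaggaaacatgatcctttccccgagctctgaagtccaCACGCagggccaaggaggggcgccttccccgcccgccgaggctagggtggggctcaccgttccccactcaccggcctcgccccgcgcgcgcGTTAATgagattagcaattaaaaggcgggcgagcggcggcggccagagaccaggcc

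Motifs were searched on both strands. The core of HIF binding sites was taken as ACGTG, and equally with G as its first base in place of A. GTTAAT forms one side of the site of HNF1, a proximal tubule transcription factor. TGATGNAA is the element of ATF4, a factor that responds to amino acid shortage. The Slc6a19 window held none of them. The Slc36a1 window held the HIF core from base 246 to 242 before the start, sharing letters with a GTTAAT from 243 to 238. It held the core again on both strands of 1 palindrome, at 31 to 27 and 30 to 26. The Slc6a20a window held 1 HIF core at 147 to 143 and 1 GTTAAT at 56 to 51. These are matches of letters and not measured binding.

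RefSeq windows were at hand for 46 of the 63 members and for 7 of the 9 called ones, not for Slc1a5 and Slc43a3. A HIF core was in 33 of the 67 windows of members (49.3%) and in 38.6% of all 32851 windows. GTTAAT was in 6 of the 67 (8.96%) and 6.43% of all, and TGATGNAA in 3 (4.48%) and 3.45% of all. Among the 9 windows of the members that rose, 7 held a HIF core, 2 held GTTAAT and 0 held TGATGNAA. These 7 windows belong to 4 of 6 genes, 3 of them to Slc6a9 and 2 overlapping ones, which share 1 match, to Slc7a9. The window of Slc38a10, which fell, also held the HIF core, at 149 to 145 and 70 to 66 before its start.

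The apical neutral carrier Slc6a19, also called B0AT1, had the largest log2 difference of the 63 members. It read 11.31, 11.60, 11.25 and 11.43 on mutant arrays 1 to 4 and 10.76, 10.82, 10.47 and 10.28 on control arrays 1 to 4. The lowest array labelled mutant stood above the highest labelled control. The log2 difference was 0.81 (SE 0.123), a 1.76-fold higher reading on the linear scale, with an adjusted p of 0.00381 by limma, and it passed in all 17 alternative fits (adjusted p up to 0.0289). In the annotation the lncRNA Slc6a19os overlaps this gene. Slc6a19os read 6.79, 6.79, 6.79 and 6.74 against 6.65, 6.63, 6.61 and 6.69, a log2 difference of 0.13 that was not called (adjusted p 0.134, limma), although its groups did not overlap either. Whether the 2 probe sets share signal was not tested.

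Slc6a18, the neighbouring gene on chromosome 13, encodes a related apical carrier that in mice takes up glycine and other neutral amino acids. It read 12.86, 12.87, 12.95 and 12.90 on the arrays labelled mutant and 12.92, 12.84, 12.81 and 12.89 on those labelled control. These ranges overlap, and the log2 difference was 0.03 (SE 0.0498, adjusted p 0.719 by limma). Within each array, Slc6a19 minus Slc6a18 was higher by 0.78 on the arrays labelled mutant, with no overlap between groups. The exact permutation p was 0.0286, the smallest that 4 against 4 arrays allow when replicate numbers are left out. After Benjamini-Hochberg adjustment over the 7 within-array pairs it was 0.05, which is not under the threshold. Cltrn, whose product Slc6a19 needs, had a log2 difference of 0.15 (adjusted p 0.187, limma). Slc6a19 minus Cltrn was higher by 0.67 with the same exact permutation p of 0.0286 and adjusted value of 0.05. Slc6a19 alone already stood apart between the groups, and Slc6a18 and Cltrn differed far less. Both comparisons therefore largely repeat the Slc6a19 result and are no separate support for it.

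Slc6a20a encodes the sodium-dependent proline carrier of the brush border, and its neighbour Slc6a20b is a close copy. Slc6a20a read 11.29, 11.63, 11.42 and 11.40 on the arrays labelled mutant and 11.16, 10.77, 11.08 and 11.01 on those labelled control. The groups did not overlap, but mutant array 1 and control array 1 were close. The log2 difference was 0.44 (SE 0.0964, 1.35-fold, adjusted p 0.0237 by limma). With the replicate number as a block its adjusted p was 0.0682, without mutant array 2 it was 0.0637, and without control array 2 it was 0.0527. Slc6a20b, with values of 12.19 to 12.71 and 12.07 to 12.39, had a log2 difference of 0.24 that was not called (adjusted p 0.258). Without mutant arrays 3 and 4 the Slc6a20b difference was 0.44 and passed (adjusted p 0.0325 by limma). Without mutant arrays 1 and 2 it was 0.05 (adjusted p 0.883). Slc6a20a minus Slc6a20b within arrays was higher by 0.19 with overlapping groups (exact permutation p 0.40), and signal shared between the copies was not tested.

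Slc6a9 encodes the glycine carrier GlyT1. It read 10.49, 10.28, 10.21 and 10.13 on the arrays labelled mutant and 9.78, 9.62, 9.89 and 9.85 on those labelled control. All 4 arrays labelled mutant were above every array labelled control, and the log2 difference was 0.49 (SE 0.0873, 1.41-fold, adjusted p 0.00814 by limma). It passed in all 17 alternative fits, with adjusted p values up to 0.0439. The glycine carrier Slc6a5, GlyT2, read near the floor at 6.52 to 6.76 over the 8 arrays and was not called.

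The remaining amino acid carriers of Slc6a were not called. Over the 10 genes of this role, 3 rose, none fell, 9 had a positive difference and the median was 0.19. Slc6a14, a carrier of neutral and cationic amino acids, read only 5.47 to 5.72, and its log2 difference of 0.15 had an adjusted p of 0.147 although the groups did not overlap. The proline carrier Slc6a7 (0.04) and the neutral carriers Slc6a15 (-0.11) and Slc6a17 (0.55) are best known from neurons. Slc6a17 read 8.80, 8.87, 9.42 and 9.24 against 8.25, 8.29, 8.97 and 8.62. Both groups ran lower on arrays 1 and 2 than on arrays 3 and 4, and the arrays labelled mutant were higher by 0.55, 0.59, 0.45 and 0.63 within the 4 same-numbered pairs. Its adjusted p was 0.106 in limma without the block and 0.00298 with it, and without control array 3 it was 0.0431.

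The Slc6a carriers of osmolytes, creatine and GABA had positive differences in all 5 members, with a median of 0.21, and none was called. The creatine carrier Slc6a8 read 11.71, 11.55, 11.59 and 11.74 against 11.48, 11.46, 11.38 and 11.42. Its groups did not overlap, and its log2 difference of 0.21 had an adjusted p of 0.0618 by limma. Slc6a13, which carries GABA, betaine and taurine, read 11.76, 11.65, 11.88 and 11.71 against 11.52, 11.47, 11.52 and 11.62. The log2 difference was again 0.21, with no overlap and an adjusted p of 0.073. Both passed after quantile normalization (adjusted p 0.0262 and 0.0182), and each also passed under other settings that changed only the filter or the variance estimate.

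The betaine carrier Slc6a12, next to Slc6a13 on chromosome 6, spread more widely. It read 9.57, 9.01, 9.05 and 9.14 against 8.67, 8.59, 8.84 and 9.23, so that control array 4 stood above 3 of the arrays labelled mutant. Its log2 difference of 0.36 had an adjusted p of 0.214, and the within-array difference between Slc6a13 and Slc6a12 did not pass (-0.15, exact permutation p 0.40). The taurine carrier Slc6a6 had non-overlapping groups (12.10 to 12.30 against 11.98 to 12.06) but was not called (0.17, adjusted p 0.15). Slc6a11, a GABA carrier, read 6.39 to 6.84 with a difference of 0.05.

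None of the 3 monoamine carriers was called. The serotonin carrier Slc6a4 had the lowest difference of the Slc6a family, at -0.28 (8.63 to 9.06 against 8.99 to 9.20, adjusted p 0.103). It passed only when mutant array 3 was left out (adjusted p 0.0277) or mutant arrays 3 and 4 were (0.043), among 17 alternative fits. The noradrenaline carrier Slc6a2 (0.07) and the dopamine carrier Slc6a3 (0.11) were not called. The less characterised Slc6a16 (0.11) and Slc6a21 (0.18), neighbours on chromosome 7, read 5.94 to 6.76 and were not called. Over the family as a whole, 3 of 21 members rose, none fell, and the median difference was 0.15.

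Among the Slc7a light chains, many of which form heterodimers with Slc3a heavy chains, 2 of 9 rose and none fell. Slc7a8, or LAT2, is the basolateral exchanger of neutral amino acids that pairs with Slc3a2. It read 11.14, 11.25, 11.58 and 11.60 on the arrays labelled mutant and 10.98, 10.91, 11.05 and 10.83 on those labelled control. Mutant arrays 3 and 4 were well above the rest, and the groups did not overlap. Their means differed by 0.45 on the log2 scale (SE 0.107, 1.37-fold, adjusted p 0.0326 by limma). Its adjusted p was above 0.05 without mutant array 3 (0.0742), mutant array 4 (0.0737), or control array 1 (0.0702), 2 (0.0875), 3 (0.0558) or 4 (0.0735). Without mutant arrays 3 and 4 together the difference was 0.25 and the adjusted p 0.0867.

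Slc7a9 is the light chain of the apical exchanger of cystine and cationic amino acids and pairs with Slc3a1. It read 11.19, 11.06, 11.02 and 11.05 against 10.93, 10.86, 10.69 and 10.66. The groups did not overlap, and the log2 difference was 0.30 (SE 0.073, 1.23-fold, adjusted p 0.0385 by limma). This call was the least stable of those that rose, passing in 7 of 17 alternative fits. It was lost without mutant array 1 (0.0848), 2 (0.0883), 3 (0.0547) or 4 (0.071), and without control array 2 (0.0653), 3 (0.114) or 4 (0.08). It was also lost with array weights (0.0636) and without mutant arrays 1 and 2 (0.183) or 3 and 4 (0.0628).

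Neither heavy chain was called. Slc3a1 read 12.94, 13.10, 13.09 and 13.05 against 13.16, 13.10, 13.14 and 13.13, with a log2 difference of -0.09 (SE 0.0525, adjusted p 0.358 by limma). Its groups are counted among those that did not overlap, by a margin too small to show at 2 decimals. Slc3a2 read 12.33, 12.32, 12.57 and 12.52 against 12.31, 12.31, 12.33 and 12.43, with a difference of 0.09 (SE 0.0693, adjusted p 0.473). Within arrays, Slc7a9 minus Slc3a1 was higher by 0.38 and Slc7a8 minus Slc3a2 by 0.36 on the arrays labelled mutant. Neither pair overlapped between groups, and both had an exact permutation p of 0.0286 and an adjusted value of 0.05. Slc7a9 and Slc7a8 alone already stood apart between the groups, so these comparisons largely repeat their own differences. Slc7a7, the basolateral exchanger of cationic for neutral amino acids that also pairs with Slc3a2, read 11.69 to 11.86 and 11.70 to 11.84. Its log2 difference was 0.00 (SE 0.0576, adjusted p 0.993), and Slc7a7 minus Slc3a2 was -0.09 between the groups, which overlapped (exact permutation p 0.229).

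**Figure D3:**
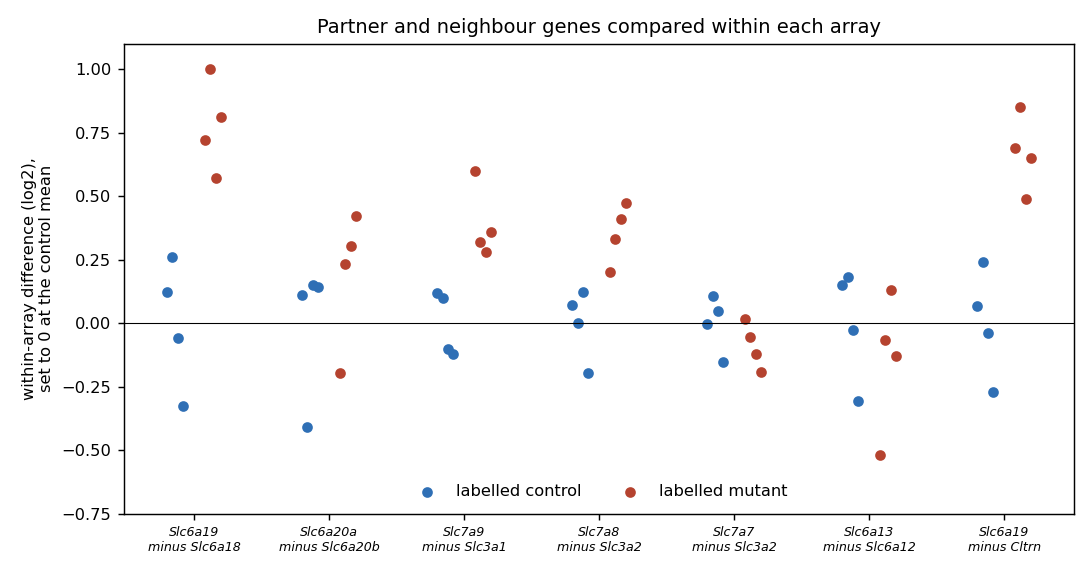
Within-array log2 difference between the genes of 7 partner or neighbour pairs (y axis), set to 0 at the mean of the arrays labelled control, with blue points for these 4 arrays and red points for the 4 labelled mutant. The groups lie apart for Slc6a19 minus Slc6a18, Slc7a9 minus Slc3a1, Slc7a8 minus Slc3a2 and Slc6a19 minus Cltrn, and overlap for the other 3 pairs.

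The 7 pairs were chosen after the values were seen. A difference within an array shows that the 2 genes changed unequally and not that either stayed constant. The other light chains were not called. Slc7a12 read 12.81 to 13.10 and 12.82 to 12.92 (difference 0.11, adjusted p 0.397), and Slc7a5, the LAT1 exchanger of large neutral amino acids, read 8.89 to 9.25 in both groups (0.05, adjusted p 0.787). Slc7a13, a carrier of aspartate and glutamate in the last proximal segment, had a difference of -0.41 with an SE of 0.256 (adjusted p 0.383). Slc7a6 (0.10), Slc7a10 (0.07) and Slc7a15 (-0.07) also missed the threshold.

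The cationic carriers of the CAT subfamily (Slc7a1, Slc7a2, Slc7a3 and Slc7a4, with the related Slc7a14) lay between -0.12 and 0.11, and none of the 5 was called. Their groups overlapped in each case. Slc7a1, the widely expressed arginine and lysine carrier, had the lowest of these differences, at -0.12 (adjusted p 0.391). Slc7a6os, the opposite-strand neighbour of Slc7a6, read 8.51 to 8.63 against 8.61 to 8.69 (-0.09, adjusted p 0.353).

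Slc36a1 encodes PAT1, a proton-coupled carrier of glycine, alanine and proline at lysosomes and apical membranes. It read 10.98, 10.94, 10.95 and 10.79 on the arrays labelled mutant and 10.46, 10.42, 10.34 and 10.28 on those labelled control. The gap between the groups was wider than the range within either. The log2 difference was 0.54 (SE 0.0631, 1.46-fold), and its adjusted p of 0.00106 by limma was the lowest of the 63 members. It passed in all 17 alternative fits, with adjusted p values up to 0.0132.

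None of the other members of its family was called. Slc36a2 and Slc36a3, which lie beside Slc36a1 on chromosome 11, had differences of -0.19 (adjusted p 0.383) and 0.05 (adjusted p 0.783). Slc36a4, a high-affinity carrier of proline and tryptophan, read 8.58, 8.84, 8.81 and 8.87 against 8.85, 9.02, 9.25 and 8.97, a difference of -0.25 (adjusted p 0.162). The groups of Slc36a4 overlapped only through control array 1. Slc36a was the family with the lowest median difference, -0.07, and 1 of its 4 members rose.

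Slc1a5, the sodium-dependent exchanger ASCT2 that carries glutamine and other neutral amino acids, also rose. It read 9.76, 10.07, 9.99 and 10.15 on the arrays labelled mutant and 9.67, 9.64, 9.59 and 9.70 on those labelled control. Mutant array 1 was close to the control range and the other 3 stood clear of it. This gave a log2 difference of 0.34 (SE 0.0811, 1.27-fold, adjusted p 0.0315 by limma). The call was lost without mutant array 2 (0.094), 3 (0.0644) or 4 (0.0711), without control array 1 (0.0708), 2 (0.0834) or 3 (0.0945), and without mutant arrays 3 and 4 (0.106). The related Slc1a4, ASCT1, had a difference of 0.14 with overlapping groups (adjusted p 0.472).

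The 5 carriers of acidic amino acids and cystine had no call. Slc1a1, the apical glutamate and aspartate carrier of the proximal tubule, read 11.79, 11.86, 12.04 and 11.84 against 11.67, 11.63, 11.74 and 11.69. Its groups did not overlap, and the log2 difference of 0.20 (SE 0.0633) had an adjusted p of 0.0965 by limma, or 0.0234 after quantile normalization. The glial glutamate carriers Slc1a2 (-0.20) and Slc1a3 (0.02), and Slc1a6 (0.04) and Slc1a7 (0.13), all had overlapping groups.

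Slc43a3 fell, and it was the largest fall among the 63 members. Unlike Slc43a1 and Slc43a2, which carry large neutral amino acids, it is known as a carrier of purine nucleobases. It read 11.15, 11.52, 11.24 and 11.36 on the arrays labelled mutant and 11.79, 11.99, 11.93 and 11.90 on those labelled control, with no overlap. The log2 difference was -0.58 (SE 0.0833, 1.5-fold lower, adjusted p 0.00305 by limma), and it passed in all 17 alternative fits (adjusted p up to 0.0235). Slc43a2 pointed the other way without passing (10.44 to 10.77 against 10.30 to 10.52, difference 0.19, adjusted p 0.219), and Slc43a1 had a difference of 0.05.

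Slc38a10, a member of the sodium-coupled neutral amino acid family, was the other gene that fell. It read 9.80, 9.86, 9.87 and 9.79 against 10.04, 10.29, 10.12 and 9.97. The groups did not overlap, and the log2 difference was -0.28 (SE 0.0716, 1.21-fold lower, adjusted p 0.0464 by limma), just under the threshold. It was lost without mutant array 1 (0.0933), 2 (0.0934), 3 (0.0739) or 4 (0.101), without control array 1 (0.075), 2 (0.0915) or 3 (0.117), and after quantile normalization (0.0516). Without mutant arrays 1 and 2 its adjusted p was 0.163, and without mutant arrays 3 and 4 it was 0.104.

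The other 10 members of Slc38a were not called and lay between -0.07 and 0.18. System A, which takes up alanine, glutamine and other small neutral amino acids, is formed by Slc38a1 (0.06), Slc38a2 (0.08) and Slc38a4 (-0.04), neighbours on chromosome 15. System N carries glutamine, asparagine and histidine. Its kidney form Slc38a3 read 10.57 to 10.76 against 10.51 to 10.75 (0.11, adjusted p 0.417), and Slc38a5 had a difference of 0.05. The lysosomal Slc38a7 (0.05) and Slc38a9 (-0.07), the latter an arginine sensor of the mTORC1 pathway, were not called, nor were Slc38a6 (0.01), Slc38a8 (0.18) and Slc38a11 (-0.06). Slc38a1 and Slc38a9 had 2 probe sets each, and averaging these gave 0.01 and -0.06.

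Some members varied more between mice of 1 group than between the groups. The median SD within a group was 0.12 over the members and 0.104 over all genes, and Slc6a15 (0.477), Slc7a13 (0.458), Slc38a2 (0.409) and Slc6a17 (0.319) had the widest. Slc6a15 read 10.03 and 10.17 on control arrays 1 and 2 but 9.03 and 9.07 on control arrays 3 and 4, with 9.64, 9.10, 9.75 and 9.39 on the arrays labelled mutant. Slc38a2, whose transcript is known to rise with amino acid shortage and hypertonicity, was highest on array 4 of both groups, at 11.80 and 11.71, where the other 6 arrays read 10.81 to 11.25. Slc7a13 was highest on array 3 of both groups, at 8.72 and 9.17, and Slc38a4 was lower on arrays 1 and 2 (7.09 to 7.22) than on arrays 3 and 4 (7.47 to 7.63) of both groups. Whether equal replicate numbers stand for a shared litter or day is not given in the labels.

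**Figure D4:**
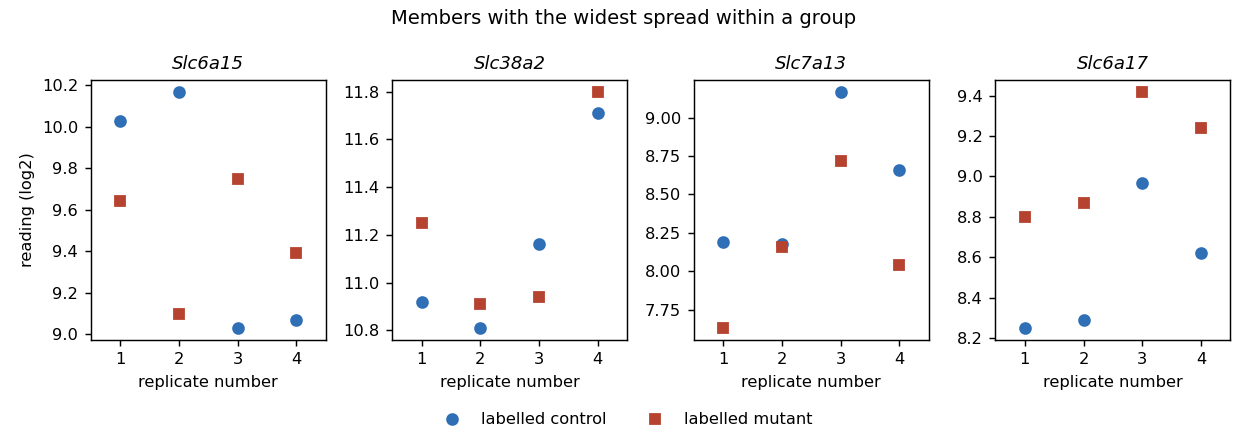
Deposited log2 reading (y axis) of the 4 members with the widest spread within a group, by replicate number of the labels (x axis), with blue circles for arrays labelled control and red squares for arrays labelled mutant. Axes differ between panels and do not start at 0. Slc38a2 is highest on array 4 of both groups, and Slc6a17 is higher on the array labelled mutant of each number.

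Markers of kidney cell types moved with the labelled groups. Of 11 proximal tubule markers, 3 rose (Aqp1, Slc13a3 and Slc22a8), 8 were not called and none fell. The difference was positive for 9 and negative for 2, Lrp2 (-0.06) and Fbp1 (-0.02). Slc22a6 (0.55, adjusted p 0.474 by limma) and Slc5a2 (0.42, adjusted p 0.207) had wide spreads and enter the mean without being called. The mean over the 11 was 12.64 to 12.82 on the arrays labelled mutant and 12.37 to 12.61 on those labelled control, and none read near the floor. Of 6 markers of the last proximal segment, 3 rose, and 1 of the 6 is the member Slc7a13. All 8 endothelial markers fell, with means of 10.08 to 10.19 against 10.75 to 10.95, as did 4 of 5 markers of smooth muscle and pericytes. Of 7 leukocyte markers 0 were called (with the replicate block Cd68 fell, adjusted p 0.0334 by limma). Ptprc read 8.26, 8.27, 7.39 and 7.31 on mutant arrays 1 to 4. Without mutant arrays 1 and 2, Ptprc (adjusted p 0.0107 by limma) and Cd14 (0.0424) fell. Further along the tubule, 2 of 5 markers of the thick ascending limb, 2 of 4 of the distal convoluted tubule and 1 of 9 of the collecting duct rose. With the block Slc12a1 of the thick ascending limb (adjusted p 0.0456 by limma) and Slc12a3 of the distal convoluted tubule (0.0341) passed as well. All 4 proliferation markers fell. Of 4 podocyte markers 1 fell (Podxl), while 2 (Nphs1 and Wt1) were higher without overlap between groups but were not called. Alas2, the only 1 measured of 4 listed erythroid markers, fell.

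Member readings were therefore also set against the mean marker reading within each array, in 9 comparisons. Members that rose were set against the proximal tubule mean and members that fell against the endothelial mean. The reference was thus picked by the direction of the call and not by where each gene is expressed. Each mean moved the same way as its members, so a rise or fall was bound to look smaller or turn. These comparisons cannot show in which cells a member changed. Against the proximal tubule mean, which was itself higher by 0.22, Slc6a19 remained higher by 0.59 and Slc36a1 by 0.32, with no overlap between groups (exact permutation p 0.0286 each, 0.0858 adjusted over the 9). The differences for Slc6a9 (0.27), Slc7a8 (0.23), Slc6a20a (0.21), Slc1a5 (0.12) and Slc7a9 (0.07) had overlapping groups, with exact permutation p values of 0.114 to 0.486. Against the endothelial mean, which was lower by 0.70 on the arrays labelled mutant, Slc43a3 differed by 0.12 with overlap (exact permutation p 0.143). Slc38a10 fell less than the endothelial mean, by 0.43 (exact permutation p 0.0286, 0.0858 adjusted). The part of cell composition in these results was not tested.

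Carriers outside the 7 families that handle amino acids or short peptides, together with carrier partners, were counted from a separate list, of which 21 of 22 genes were measured. Of the 21, 1 rose, 1 fell, and the median difference was 0.05. With the replicate block the lysosomal carrier Slc66a1 rose as well (log2 difference 0.21, adjusted p 0.0483 by limma, 0.12 without the block). Both called genes encode mitochondrial aspartate-glutamate carriers. Slc25a12 rose by 0.25 on the log2 scale (11.64, 11.58, 11.62 and 11.66 against 11.35, 11.38, 11.41 and 11.38, adjusted p 0.0108 by limma). Slc25a13 fell by 0.35 (10.53, 10.71, 10.60 and 10.53 against 10.94, 11.09, 11.02 and 10.74, adjusted p 0.0258). Neither pair of groups overlapped. The call of Slc25a12 was lost without mutant arrays 3 and 4 (0.0538), and that of Slc25a13 without mutant array 1 (0.0597), 3 (0.0548) or 4 (0.0667) and without control array 1 (0.0634), 2 (0.0752) or 3 (0.0808).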

How the data were processed

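The values were the authors' deposited log2 table of 35556 probe sets on 8 arrays. Per the submitters' processing notes limma was used; its version, and the summarization, normalization and build, are not given in the sources used here. Array medians ran from 7.55 to 7.58. Upper quartiles ran from 9.08 to 9.13 on the arrays labelled mutant and from 9.11 to 9.16 on those labelled control. The number of arrays limits the precision.

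Probe sets were named from the platform annotation: 21789 named 1 gene, 1621 several and 12146 were unlisted, and 21701 of the 21789 matched a current gene. Each gene was represented by its probe set of highest mean reading over the 8 arrays, leaving 19936 genes. One gene of the Slc7a family, excepted by the rule, is not reported here.

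Differences (labelled mutant minus labelled control, 4 arrays each) were tested two-sided by limma's lmFit and eBayes (limma 3.58.1, R 4.3.3), with Benjamini-Hochberg adjustment over all genes. Only the main fit was tested on simulated data, with independent noise and no pairing by replicate number. There 83.0% of changes of log2 0.5 and 98.0% of those of log2 1 were called, and 11 of 192 calls were false. Members, roles, marker lists and the naming rule were chosen with earlier results of these data known. The rule named called members, members with adjusted p from 0.05 to 0.10, protein partners, and in each family the largest difference and the highest mean. Others were named after their values were seen, to account for every member. Exact permutation tests were two-sided over 70 assignments of 4 against 4 arrays, which leave out any pairing by replicate number. Readings are not compared between genes.

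The labels number arrays 1 to 4 in both groups. Between arrays of 1 number, the deviations from group means had correlations of 0.138, 0.153, 0.295 and 0.175, all over 0.1. Mutant array 2 with control array 1 was also over 0.1, at 0.111. The numbers were taken to pair arrays, from the data and not the labels. The main limma fit, without a block, left this pairing out, and the fit with the block is among the alternatives. The alternatives were quantile normalization, median centring, the upper 60% of probe sets, array weights, eBayes with trend and robust, a block for the replicate number, averaging the probe sets of a gene, an adjusted p under 0.01, and leaving out arrays. HNF1, HIF and ATF4 motifs were matched in RefSeq promoter windows.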

Additional observations from a re-analysis of the deposited data

Results flagged for a closer look

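In 4 of 126 groups of 4 arrays (63 members in both labelled groups), 1 array stood apart from the other 3 by Dixon's test, which chance alone does in about 1 of 20 groups. Slc38a3 read 10.75 on control array 3 and 10.51 to 10.54 on the others of its group. Slc38a9 read 9.39 on control array 3 and 9.27 to 9.28 on the others. Slc6a16 read 6.34 on mutant array 1 and 6.23 to 6.24 on the others. Slc6a19os read 6.74 on mutant array 4 and 6.79 on the others. None of these 4 genes was called between the groups.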

How the results depend on the processing

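None of the 9 called members changed direction under the alternative fits. Of the members not called, 23 changed sign in at least 1 of them. In the main fit these had log2 differences of -0.11 to 0.18 and adjusted p values of 0.413 or more. Their values ranged further in the alternatives. Slc6a21 passed without mutant arrays 3 and 4 (0.38, adjusted p 0.0319 by limma), and Slc38a4 ran from -0.27 to 0.18. The Slc3a median of 0.00 ran from -0.07 to 0.07, the Slc38a median went from 0.05 to -0.03 without mutant arrays 3 and 4, and the Slc43a median from 0.05 to -0.07 without that pair, -0.03 without mutant array 4 and -0.02 without control array 3. Of the 7 members that rose and the 2 that fell, Slc6a19, Slc36a1, Slc6a9 and Slc43a3 passed in all 17 alternative fits. Slc6a20a passed in 12, Slc7a8 and Slc1a5 in 10, and Slc7a9 and Slc38a10 in 7. Leaving out 1 array gave 3 to 6 members that rose, 1 to 2 that fell, and 263 to 487 genes that rose; with fewer arrays the test has less to work with. Without mutant arrays 1 and 2, 1 member fell and 316 genes rose. At an adjusted p under 0.01, 3 members rose and 1 fell, and 148 genes rose and 454 fell. Quantile normalization gave 10 members that rose and 1 that fell, and shifted the median of all genes by 0.01. The members it added moved by more than that median. Slc1a1 went from 0.20 to 0.25, Slc6a13 from 0.21 to 0.27 and Slc6a8 from 0.21 to 0.26. The cause of the added calls was not tested. With the replicate block 7 members rose and 2 fell, and 8 of the 9 called members kept their call: Slc6a20a lost it and Slc6a17 gained one, and the block changed no other member's call. The adjusted p values by limma with the block were 0.00238 for Slc36a1, 0.00306 for Slc43a3, 0.00529 for Slc6a19 and 0.0213 for Slc6a9. They were 0.0217 for Slc7a9, 0.0351 for Slc38a10, 0.0369 for Slc1a5 and 0.0413 for Slc7a8. Of 91 family medians recomputed, 12 moved by more than the spread between arrays, 8 of them when a pair of mutant arrays was left out; the cause was not tested. The median standard error of a member was 0.0789, and 24 members read below the overall median, where a small difference is hard to see.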
